A study of Mus musculus with 3 samples.

Results

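The genes described here encode the contents and the helpers of the killing machinery of lymphocytes, together with the death ligand that acts beside it. They are the 10 genes Gzma, Gzmb, Gzmk, Prf1, Cst7, Fasl, Nkg7, Srgn, Serpinb9 and Ctsw, taken by symbol from 23337 gene symbols in the deposited tables. All 10 were listed in a single row each, and 9 of them had a mean of at least 1 FPKM (a count of fragments made relative to transcript length and library size) and were among the 9800 genes tested. Gzma did not reach that mean and is described by its values, with a fit only where no filter was set.

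The RNA came from CD4+ T cells labelled Th1, and the mice were C57/Bl6j, wild-type and 7 weeks old, with no other allele or agent in the labels. The lymphoid group had 2 libraries, with spleen in their titles and spleen, lymph nodes and draining lymph nodes as their tissue, and the tumour group had 1 library from B16-F10 tumours, a melanoma line that grows in this mouse strain. The labels do not state whether a library pools animals, whether the libraries came from separate mice, or how Th1 cells were selected, so each p-value measures the spread between these libraries and may be technical. In bulk RNA, fewer cells that express a gene and less RNA per cell cannot be told apart.

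Cytotoxic lymphocytes store granzymes, which are serine proteases, and perforin in secretory granules and release them towards a bound cell. Perforin forms pores in the membrane of that cell and the granzymes enter through them, granzyme B cutting caspases and Bid. The proteoglycan serglycin packs the positively charged proteins inside the granule, and a serpin in the cytosol protects the killer from its own granzyme B. Fas ligand is a separate route that acts through the death receptor Fas. CD4+ T cells of the Th1 kind are known to use Fas ligand, and under some conditions also perforin and granzyme B.

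Of the 9 tested genes 5 were called, 3 higher in the tumour library (Gzmb, Fasl and Serpinb9) and 2 lower (Prf1 and Cst7), against 21.9% of all tested genes called in either direction, 12.7% higher and 9.17% lower. The test was limma on log2(FPKM + 1) after median-of-ratios scaling, with Benjamini-Hochberg adjustment over all tested genes and a threshold of 0.05. The median log2 change of the 9 genes was 0.17, beside -0.01 for all tested genes. The genes did not move as a block: those for granzyme B, Fas ligand and the granzyme B inhibitor rose on the scaled values, and those for perforin and cystatin F fell, while as deposited the log2 changes of Fasl and Serpinb9 were -0.20 and -0.12. When the counting error of the shallower tumour library was added to the spread, Gzmb alone remained called (limma adjusted p = 0.0141), where 3.05% of 9714 genes with a known length were called, 2.88% higher and 0.165% lower. As deposited, without scaling, 1 of the 9 was called higher and 5 lower, where 82.5% of all tested genes were called, 4.74% higher and 77.8% lower. After scaling, the tumour value lay above both lymphoid values for 5 of the 9 and below both for 3, beside 41.3% and 42.6% of all tested genes. The fit takes its spread from the lymphoid pair alone (1 residual degree of freedom). It treats the lone tumour library as varying to the same extent.

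The libraries differed in depth and in background. From the step between low values, about 11400000 and 15420000 fragments were estimated for the lymphoid libraries and 3250000 for the tumour library, and the scaling factors were 1.29, 1.33 and 0.58. Over 1379 odorant and vomeronasal receptor genes, which T cells are not known to use, the mean was 0.00999 and 0.0437 scaled FPKM in the lymphoid libraries and 0.263 in the tumour library, where the 95th percentile of these genes was 1.20. Levels near that value in the tumour library are therefore near what silent genes showed there. T cell genes were at a like level in all libraries, with a summed level of 7 markers of 678.8, 674.1 and 646.6 scaled FPKM, and 0 of 7 called by limma (0 of 7 at an unadjusted p under 0.05). The 6 Th1 markers summed to 129.0, 120.0 and 118.5. Of these Ifng alone was called (lower, limma adjusted p = 0.00535, and 0.251 with counting error added), with 3 of 6 at an unadjusted p under 0.05. The share of all tested genes at that unadjusted threshold is not given here, so counts at it have no background beside them.

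The stretches upstream of the 5 called genes are printed here because these genes are the ones that parted in direction. Each is the 250 bases before the start that RefSeq gives for the gene, on the gene's own strand, 5′ to 3′. They come from RefSeq's promoter table for GRCm38.p6 (the assembly of mm10), which held 9 of the 10 genes. The stretch of Serpinb9 lies in an intron of the longer gene model that GENCODE gives. The others lie before the GENCODE gene or reach at most 3 bases into it. The Gzmb stretch does not reach the GENCODE start: on the minus strand it ends at 56262335, and the gene begins at 56262260. Capitals mark letters that match a searched motif on either strand.
Gzmb, chr14:56262335-56262584, minus strand: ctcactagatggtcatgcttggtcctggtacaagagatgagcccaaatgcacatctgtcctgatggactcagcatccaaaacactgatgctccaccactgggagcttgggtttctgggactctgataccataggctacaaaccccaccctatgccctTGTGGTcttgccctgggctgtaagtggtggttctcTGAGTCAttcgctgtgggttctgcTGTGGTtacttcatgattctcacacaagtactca
Fasl, chr1:161788496-161788745, minus strand: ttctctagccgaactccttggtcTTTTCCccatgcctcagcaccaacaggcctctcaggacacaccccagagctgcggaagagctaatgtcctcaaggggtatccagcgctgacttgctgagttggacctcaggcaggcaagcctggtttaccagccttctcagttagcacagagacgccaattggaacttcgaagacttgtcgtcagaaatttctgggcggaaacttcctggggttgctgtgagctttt
Serpinb9, chr13:33004291-33004540, plus strand: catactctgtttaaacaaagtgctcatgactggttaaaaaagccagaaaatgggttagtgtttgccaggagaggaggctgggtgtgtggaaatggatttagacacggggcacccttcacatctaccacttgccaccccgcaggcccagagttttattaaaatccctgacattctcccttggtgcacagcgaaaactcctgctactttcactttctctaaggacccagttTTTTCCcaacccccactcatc
Prf1, chr10:61297586-61297835, plus strand: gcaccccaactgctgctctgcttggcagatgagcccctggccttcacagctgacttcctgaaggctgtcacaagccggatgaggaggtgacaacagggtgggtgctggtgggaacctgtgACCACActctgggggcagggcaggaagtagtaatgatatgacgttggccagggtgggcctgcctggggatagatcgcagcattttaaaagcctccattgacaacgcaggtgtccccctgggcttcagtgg
Cst7, chr2:150570165-150570414, plus strand: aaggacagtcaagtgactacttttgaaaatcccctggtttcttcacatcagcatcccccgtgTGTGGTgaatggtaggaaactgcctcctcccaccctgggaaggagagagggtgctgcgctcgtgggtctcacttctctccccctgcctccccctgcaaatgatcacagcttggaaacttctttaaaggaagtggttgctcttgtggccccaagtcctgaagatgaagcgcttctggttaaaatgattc

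The motifs searched were TGANTCA (AP-1), TGTGGT (RUNX), GGTGTGA (T-box), TGACGTCA (CRE) and GGAAAA (NFAT), on both strands, and no match overlapped another in the printed stretches. The Gzmb stretch held TGTGGT at 93 and 34 bases before the RefSeq start, with TGAGTCA between them at 58 bases. It was the only member with the AP-1 letters, which 6.75% of 32851 promoter windows of this length held. TGTGGT or its reverse complement occurred in a window of 6 of 9 members, namely Gzma, Gzmb, Prf1, Cst7, Nkg7 and Srgn, and in 14.0% of all windows. Srgn had 2 windows and matched only in window 2, which lies inside the GENCODE gene, with 174 of 250 bases in exons. The Nkg7 window held 65 exonic bases. The RUNX letters stood upstream of Gzmb, called higher, and of Prf1 and Cst7, called lower, though not with counting error added. The part of these letters in the changes was not tested. The printed stretches of Fasl and Serpinb9 held none of the searched motifs apart from the NFAT letters, at 227 and 21 bases before the RefSeq start. GGAAAA occurred in 4 of 9 members, for Srgn again in window 2 only, and in 20.4% of all windows. GGTGTGA occurred in 2 of 9 (Gzmk and Nkg7) and 3.33%, and TGACGTCA in 0 of 9 and 1.55%. A match describes letters in a window and shows no binding.

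In the lymphoid libraries the most abundant of the 10 genes, per length, was Srgn, followed by Nkg7, Ctsw, Fasl, Cst7, Prf1 and Serpinb9, with Gzmb, Gzmk and Gzma last. The first 7 places were the same in both lymphoid libraries, while Gzmb and Gzmk traded places between them. Gzmb, at 0.998 ± 0.225 (SD, n = 2), and Gzmk, at 1.23 ± 0.665, did not differ beyond their spread. The same holds for Prf1, at 4.52 ± 0.207, and Serpinb9, at 4.15 ± 0.181, whose SD ranges overlap. The SD ranges of the other neighbours did not overlap. In the tumour library Gzmb moved to place 5, above Serpinb9, Cst7 and Prf1, and Prf1 fell to place 8. Srgn stayed first and Fasl stayed in place 4.

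**Figure D1:**
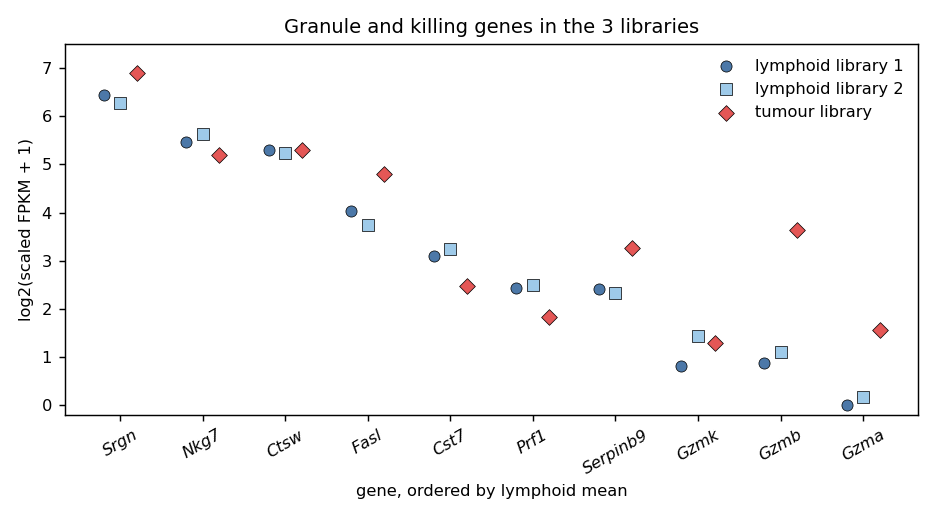
Level of the 10 genes as log2(scaled FPKM + 1) on the y axis, with genes on the x axis ordered by lymphoid mean and 1 point per library (no error bars, since each point is a library). The tumour point lies above both lymphoid points for Gzmb, Gzma, Fasl, Serpinb9, Srgn and, by little, Ctsw, and below both for Prf1, Cst7 and Nkg7.

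Gzmb encodes granzyme B, the protease that cuts after aspartate and activates caspases (ENSMUSG00000015437.5, GRCm38 chromosome 14, 56258838 to 56262260, minus strand). Its level was 0.839 and 1.16 scaled FPKM in the lymphoid libraries and 11.4 in the tumour library. The tumour library was thus far above both, 13.6 times lymphoid library 1 and 9.89 times lymphoid library 2. The log2 change was 2.64 with an SE of 0.17 (limma adjusted p = 0.000884). Behind these levels stood about 18 and 34 estimated fragments in the lymphoid libraries and 31 in the tumour library, for a ratio of 11.2 with an exact 95% interval of 6.92 to 17.8 that covers counting error only. Gzmb was the only tested member at least 2-fold from each lymphoid library, a distance that 8.76% of tested genes reached upwards and 5.96% downwards. Without lymphoid library 1, Fasl and Serpinb9 passed it too, which made 3 members, where 10.4% of tested genes lay that far above lymphoid library 2.

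As deposited, without scaling, Gzmb was also higher in the tumour library, at 6.63 FPKM beside 1.09 and 1.54. The scaling raises tumour values against lymphoid ones, and for Gzmb the direction was the same with and without it. The 3 tested genes nearest Gzmb, by distance in the pair of log2 ratios and the lymphoid level over the 3 libraries, were Zfp300, Lag3 and Gm11696. Zfp300, a zinc finger gene, was at 0.858, 1.07 and 11.2 scaled FPKM. Lag3, an inhibitory receptor of activated T cells, was at 1.03, 1.24 and 10.8. Gm11696, named only as a gene model, was at 1.21, 0.962 and 11.9.

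The other granzymes were low everywhere. Gzma encodes a tryptase-like granzyme (ENSMUSG00000023132.8, chromosome 13, 113093825 to 113100981, minus strand) and was at 0 and 0.120 scaled FPKM in the lymphoid libraries and 1.93 in the tumour library. The tumour value was above both lymphoid values and above the 95th percentile of the silent receptor genes. It rested on about 3.4 fragments, for which the exact 95% interval of a count of 3 is 0.619 to 8.77, so no fold is given. With no filter on low genes Gzma entered the fit and was called higher (log2 change 1.47, limma adjusted p = 0.0252), in a fit without counting error where 7364 of 20968 genes were called higher.

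Gzmk encodes granzyme K, another tryptase-like granzyme (ENSMUSG00000042385.14, chromosome 13), and its gene lies 70626 bases from Gzma with no overlap. Its level was 0.756 and 1.70 scaled FPKM in the lymphoid libraries and 1.45 in the tumour library. The tumour value lay between the lymphoid ones, which themselves were more than 2-fold apart, and it was not called (limma adjusted p = 0.702). It rested on about 3.2 fragments, with an interval of the tumour to lymphoid ratio from 0.208 to 3.21, so a change of several fold in either direction was not detectable at this depth. The annotated gene also overlaps Esm1 on the opposite strand, and no source used here says whether the authors counted by strand.

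The 7 remaining mouse granzyme genes were 0 of 7 tested. Gzmm, the most abundant of them, was at 0.493, 0.390 and 1.27 scaled FPKM, and Gzmg and Gzmn were listed at 0 in all libraries. Their tumour values rested on at most about 3 fragments each and were near the silent receptor genes. Summed over all 10 granzyme genes the level was 2.65 and 3.64 in the lymphoid libraries and 19.1 in the tumour library. Gzmb made up 31.7% and 31.8% of that sum in the lymphoid libraries and 59.9% in the tumour library. The share of Gzmk went from 28.5% and 46.5% to 7.56%, while its own tumour level, on about 3.2 fragments, lay between the lymphoid ones.

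Perforin, the pore-forming protein that lets granzymes into a target cell, is encoded by Prf1 (ENSMUSG00000037202.6, chromosome 10, 61297833 to 61304680, plus strand). Its level was 4.38 and 4.67 scaled FPKM in the lymphoid libraries and 2.57 in the tumour library. The tumour value was below both lymphoid values, which were close to each other, with a log2 change of -0.63 and an SE of 0.15 (limma adjusted p = 0.0353). It rested on about 11 tumour fragments, and the call was lost with counting error added (adjusted p = 0.539). The interval of the tumour to lymphoid ratio, 0.286 to 1.05, reached 1.

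Cst7 encodes cystatin F, an inhibitor that holds back cathepsins, among them cathepsin C, which activates the granzymes (ENSMUSG00000068129.5, chromosome 2). It was at 7.51 and 8.51 scaled FPKM in the lymphoid libraries and 4.52 in the tumour library. The tumour value was again below both, by a log2 change of -0.70 with an SE of 0.16 (limma adjusted p = 0.0336). About 8 tumour fragments stood behind it, the call was lost with counting error added (adjusted p = 0.587), and the ratio's interval was 0.227 to 1.06. The Cst7 call also ended without the filter on low values (adjusted p = 0.0717) and when only genes averaging 5 FPKM were kept (adjusted p = 0.0699). With scaling by library totals neither Prf1 nor Cst7 was called, at log2 changes of -0.06 and -0.07.

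Fasl encodes Fas ligand, the membrane protein that triggers death through Fas (ENSMUSG00000000817.10, chromosome 1). It was at 15.3 and 12.4 scaled FPKM in the lymphoid libraries and 27.0 in the tumour library, above both. The log2 change was 0.92 with an SE of 0.19 (limma adjusted p = 0.0266). About 60 tumour fragments gave a ratio of 2.00 with an interval of 1.503 to 2.61, while the call was lost with counting error added (adjusted p = 0.211), with no filter (adjusted p = 0.0939) and at a mean of 5 FPKM or more (adjusted p = 0.0627). As deposited Fasl was not higher, at 15.6 FPKM in the tumour library and 19.8 and 16.5 in the lymphoid ones, so its rise is relative to the median gene.

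Serpinb9 encodes the cytosolic inhibitor of granzyme B (ENSMUSG00000045827.10, chromosome 13). It was at 4.28 and 4.03 scaled FPKM in the lymphoid libraries and 8.55 in the tumour library. The tumour value was above both, by 1.996-fold and 2.12-fold, so it fell just short of 2-fold against lymphoid library 1. The log2 change was 0.89 with an SE of 0.15 (limma adjusted p = 0.0136). About 55 tumour fragments gave a ratio of 2.06 with an interval of 1.53 to 2.72, and the adjusted p with counting error added was 0.160. As deposited the values were 5.54, 5.37 and 4.95, so that this rise, too, is relative to the median gene. The neighbouring paralogue Serpinb9b, picked after its values were seen, was at 0.0177, 0.0251 and 1.37 scaled FPKM, on about 8 tumour fragments, and was not tested. Of the 75-base words in the annotated transcripts of each of the 10 genes, 0% occurred in transcripts of another gene, so a whole read that matches exactly could be placed.

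The 3 most abundant members were not called. Srgn, which encodes serglycin, the proteoglycan core of the granule (ENSMUSG00000020077.14, chromosome 10), was at 85.9, 76.5 and 118.4 scaled FPKM. The tumour value was above both lymphoid values, with a log2 change of 0.54 and a limma adjusted p of 0.116. Its ratio of 1.47 had a counting interval of 1.24 to 1.74, and it was lower as deposited, at 111.2 and 102.0 in the lymphoid libraries and 68.6 FPKM in the tumour library.

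Nkg7 encodes a granule membrane protein needed for efficient degranulation (ENSMUSG00000004612.9, chromosome 7) and was at 42.9, 48.3 and 35.8 scaled FPKM. The tumour value was below both, with a log2 change of -0.34, a limma adjusted p of 0.255, a counting interval of the ratio from 0.580 to 1.02, and a log2 change of 0.39 with library totals. Ctsw encodes cathepsin W, a cysteine protease of T and NK cells (ENSMUSG00000024910.5, chromosome 19), and was at 38.1, 36.5 and 38.6. Its log2 change was 0.05 (limma adjusted p = 0.879), or -1.10 as deposited, and the counting interval of its ratio was 0.829 to 1.29. The gene overlaps Fibp on the opposite strand.

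**Figure D2:**
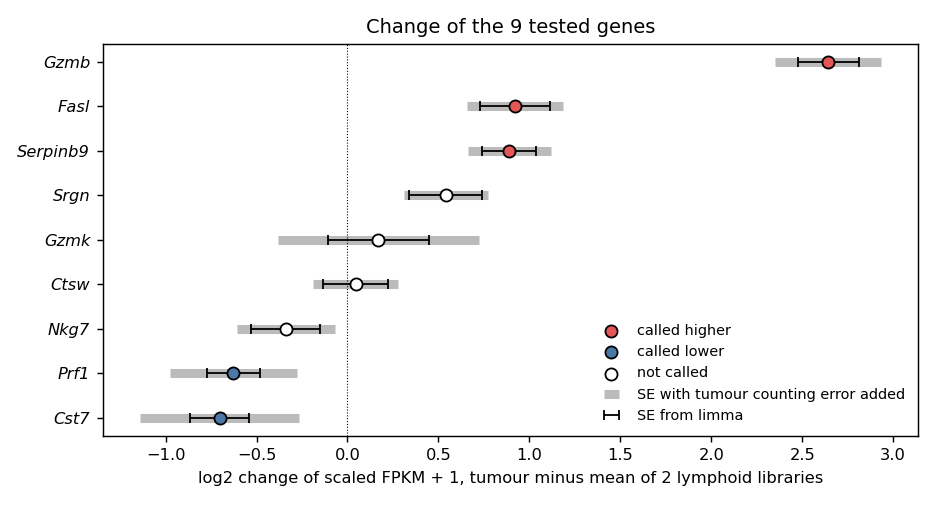
Log2 change of scaled FPKM + 1 in the tumour library against the mean of 2 lymphoid libraries (x axis) for the 9 tested genes (y axis). Black bars are the SE from limma, grey bars the SE with tumour counting error added, and fill gives the call without it. Gzmb lies at 2.64, far from the next gene, Fasl, at 0.92, and Cst7 is lowest at -0.70.

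Ratios between members inside a library do not depend on how whole libraries are scaled. Gzmb stood at 0.192 and 0.248 times Prf1 in the lymphoid libraries and at 4.45 times Prf1 in the tumour library. The order of the pair was thus reversed, by 23.2-fold against lymphoid library 1 and 18.0-fold against lymphoid library 2. Against Cst7 the ratio of Gzmb went from 0.112 and 0.136 to 2.53, and against its inhibitor Serpinb9 from 0.196 and 0.287 to 1.34.

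Fas ligand and perforin also parted. Fasl was at 3.49 and 2.66 times Prf1 in the lymphoid libraries and 10.5 times in the tumour library, and Serpinb9 went from 0.978 and 0.862 to 3.32 times Prf1. Other pairs kept their ratio. Cst7 was at 1.71, 1.82 and 1.76 times Prf1, and Fasl at 3.57, 3.08 and 3.16 times Serpinb9. These ratios have no test, and in the tumour library those with Prf1 or Cst7 rest on about 11 or 8 fragments of that gene.

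**Figure D3:**
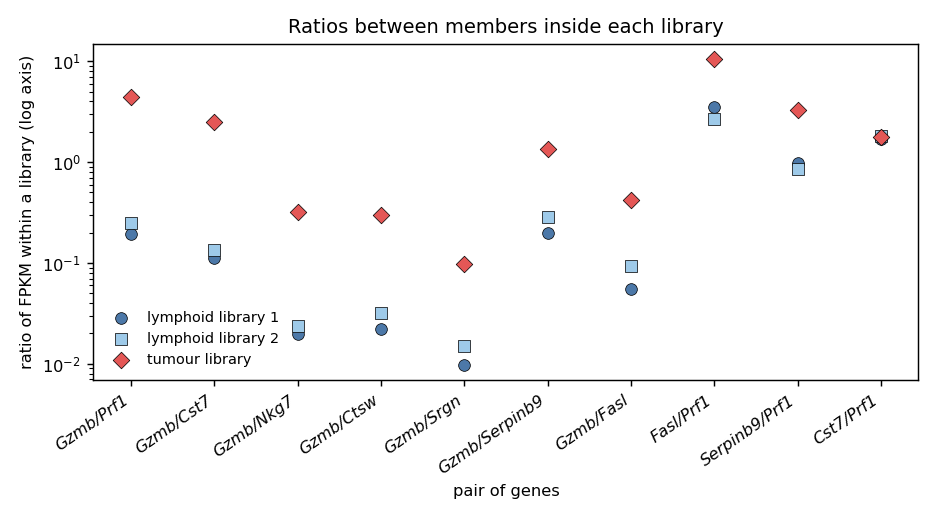
Ratio of the FPKM of 2 genes within a library (y axis, log axis) for 10 pairs of genes (x axis), with 1 point per library. The tumour point lies above both lymphoid points in the 7 pairs with Gzmb as numerator and in Fasl/Prf1 and Serpinb9/Prf1, while the 3 points of Cst7/Prf1 nearly coincide at 1.71 to 1.82.

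Genes that serve the granule pathway were followed beside the members, with no test of one list against another. The counts of calls below stand beside 21.9% of all tested genes called, 12.7% higher and 9.17% lower. These shares are at the adjusted threshold and are no background for the counts at an unadjusted p under 0.05. Of the genes listed as granule exocytosis machinery, 1 of 16 tested was called (5 of 16 at an unadjusted p under 0.05). That was Rab27a, the GTPase that tethers granules at the membrane, at 11.8 and 12.6 scaled FPKM in the lymphoid libraries and 6.10 in the tumour library (log2 change -0.90, limma adjusted p = 0.0160, and 0.218 with counting error added). The list's median log2 change was -0.21. The cathepsins had 0 of 6 called by limma (1 of 6 at an unadjusted p under 0.05), and Ctsd, the most abundant, was at 45.2, 47.9 and 34.4, with a log2 change of -0.42 (limma adjusted p = 0.157).

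Among other cystatins and serpins 3 of 7 tested genes were called, in both directions (4 of 7 at an unadjusted p under 0.05). Serpinb1a, an inhibitor of neutrophil-type serine proteases, was higher at 1.07, 0.959 and 3.04 scaled FPKM (log2 change 1.00), on about 8 tumour fragments, and its call was lost with counting error added (limma adjusted p = 0.404). The cysteine protease inhibitor genes Cst3 and Cstb were lower, at 9.59, 12.7 and 4.67 (log2 change -1.09) and at 6.55, 5.78 and 2.98 (log2 change -0.85). With Cst7 this makes 3 cystatin genes called lower, on about 8, 5 and 3 tumour fragments, and 0 of these calls remained with counting error added. Over all tested genes 9.17% were called lower without it.

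Among transcription factors of the cytotoxic programme 1 of 8 tested was called, beside 21.9% of all tested genes called. At an unadjusted p under 0.05 there were 4 of 8, a threshold at which the share of all tested genes is not given here. Zbtb7b, which encodes ThPOK, a factor that holds down cytotoxic genes in CD4+ T cells, was lower at 12.3, 13.2 and 7.01 (log2 change -0.78, limma adjusted p = 0.0245, and 0.333 with counting error added). The list's median log2 change was -0.16.

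**Figure D4:**
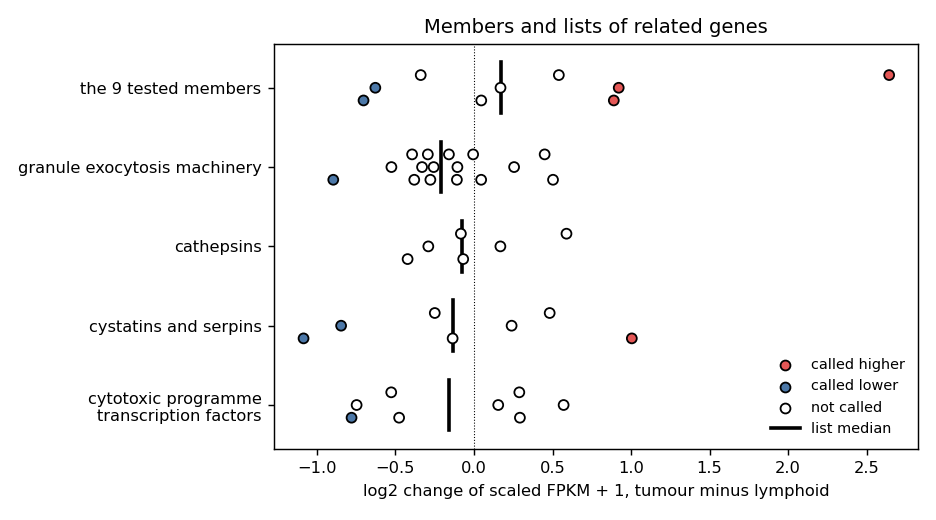
Log2 change of scaled FPKM + 1, tumour minus lymphoid (x axis), for the 9 tested members and for tested genes of 4 lists of related genes (y axis), with 1 point per gene, filled where called, and a bar at each list's median. The members span -0.70 to 2.64, a wider range than any of the 4 lists, and Gzmb lies alone at the right.

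Marker genes of other cell types that carry granule genes were followed beside these values. The CD8 T cell markers Cd8a and Cd8b1 were both higher in the tumour library. Their summed level was 0.558 and 0.814 in the lymphoid libraries and 5.27 scaled FPKM in the tumour library. The tumour sum was carried by Cd8b1 at 4.77 (limma adjusted p = 0.00255, and 0.0853 with counting error added). Cd8a was at 0.503, on about 3 fragments and under 1.20, the 95th percentile of the silent receptor genes in the tumour library. Cd8b1 reached the mean of 1 FPKM only through the tumour library, so its test is no independent support for its direction. Of the 10 myeloid markers listed in the files 6 lay above both lymphoid libraries, beside 41.3% of all tested genes. Only 1 of these 10 was tested, so that share is not a matched background. The silent receptor genes, too, had a higher mean in the tumour library, at 0.263 scaled FPKM beside 0.00999 and 0.0437. The myeloid sums were 1.45, 1.17 and 7.92, and C1qb, S100a8 and S100a9 were at 0 in all libraries. The tumour sum was carried by Itgam at 3.95 (limma adjusted p = 0.00579, and 0.0724 with counting error added) and C1qa at 2.55. These rested on about 31 and 5 fragments, and the other myeloid markers were under 1.20 in the tumour library. The part of CD8 T cells and myeloid cells in the rise of Gzmb was not tested.

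NK cell markers were present in all libraries, with sums of 57.1, 53.8 and 50.3 over 10 genes, of which 5 were above and 3 below both lymphoid libraries. The sums were carried by Klrb1c (23.6, 20.1 and 13.4), Klrc1 (21.1, 20.3 and 15.7) and Klrd1 (8.95, 9.22 and 13.1), receptor genes that T cells can also express. Ncr1, a defining NK cell gene, was at 0 and 0.169 in the lymphoid libraries and 1.47 in the tumour library, on about 4 fragments, and Klra4 was at 0 in all. Mast cell, basophil and platelet markers summed to 1.16, 1.37 and 4.28, with 6 of 8 above both lymphoid libraries and Pf4 at 0 in all. For comparison, 41.3% of all tested genes lay above both and 42.6% below both. Only 4 of the 10 NK cell markers and 1 of these 8 markers were tested, so these shares are not a matched background. In the tumour library all 8 of these markers were under 1.20 scaled FPKM, the 95th percentile of the silent receptor genes there. The part of these cell types in the values of Gzmb, Gzma and Srgn was not tested.

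Beside the counts that follow, 41.3% of all tested genes lay above both lymphoid libraries and 42.6% below both. Only 1 gene each of the melanoma, plasmacytoid dendritic cell and fibroblast or endothelial lists was tested, so these shares are not a matched background. Melanoma cell markers summed to 1.35, 1.49 and 3.35, with 4 of 7 above both lymphoid libraries and Mlana at 0 in all. The highest in the tumour library was Pmel at 1.49, on about 2 fragments. The other melanoma markers were under 1.20 scaled FPKM there, the 95th percentile of the silent receptor genes. B cell markers summed to 0.757, 0.530 and 0.646, with Ms4a1 at 0 in all. Plasmacytoid dendritic cell markers summed to 8.25, 6.79 and 3.29, with 2 of 4 above both lymphoid libraries and 1 below both. The 1 below was Ccr9, a chemokine receptor gene that T cells share, which carried the sums. Those above were Siglech and Klk1, at 0.336 and 0.215 in the tumour library. Fibroblast and endothelial markers summed to 9.80, 8.90 and 8.69, carried by Pecam1, which lay below both lymphoid libraries, and Col3a1 was at 0 in all. Of these 5 markers 2 lay above both, Cdh5 at 0.777 and Col1a1 at 0.219 in the tumour library. Regulatory T cell markers summed to 48.8, 40.5 and 56.0, with Ctla4 called higher and Foxp3 called lower. Both calls were lost with counting error added (limma adjusted p = 0.0524 and 0.337). With the longest transcript in place of the median length in that setting, Ctla4 stayed called and Foxp3 did not.

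**Figure D5:**
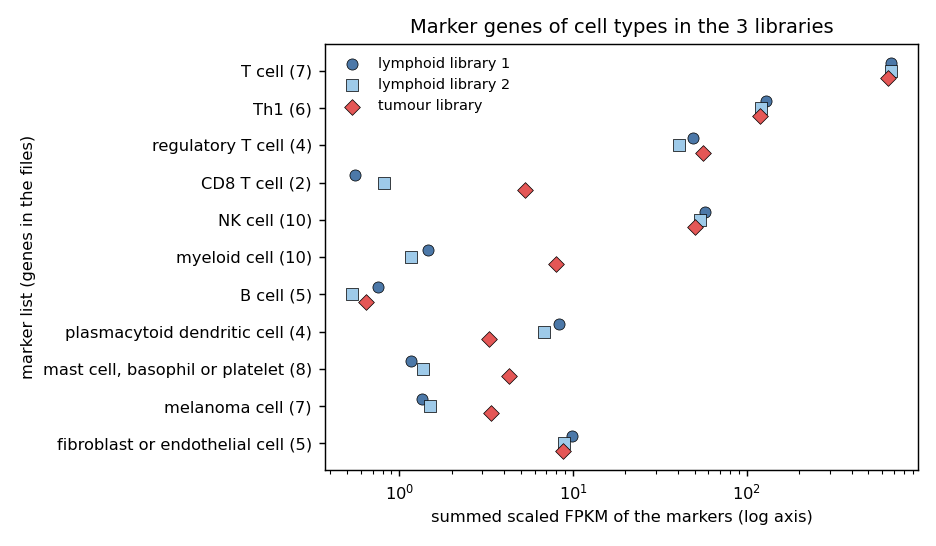
Summed scaled FPKM of the marker genes of each cell type (x axis, log axis), by marker list with the number of genes listed in the files (y axis), with 1 point per library. The T cell and Th1 sums are alike in the 3 libraries. The tumour sums of CD8 T cell and myeloid markers, 5.27 and 7.92, lie to the right of both lymphoid points. So do those of mast cell, basophil or platelet markers (4.28), melanoma markers (3.35) and regulatory T cell markers (56.0).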

How the data were processed

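RNA of 300000 CD4+ T cells per library was made into stranded libraries from 12 µl of total RNA after ribosomal RNA removal and read in pairs of 75 bases, per the labels' protocols. The submitters' processing notes name mm10, kallisto and DESeq2, with no role. The deposited values were taken as FPKM, a unit inferred from the Cufflinks-style header and from column sums that differ between libraries. The program behind them and its filters: not given in the sources used here. All 3 value columns were assigned to samples.

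For 252 symbols with several rows, that of highest mean was used. Of 23337 symbols, 21705 matched GENCODE M21 by symbol and 1268 by a unique RefSeq synonym. Median-of-ratios factors came from 9660 tested genes above 0 in every library. Tests used limma 3.58.1 (R 4.3.3, mean-variance trend, pseudocount 1) on genes averaging 1 FPKM or more, in all 3 libraries. The fit was also run on simulated data that gave all 3 libraries the lymphoid spread and no counting error. That run cannot show how the calls hold at the depth of the tumour library. Values are on the log2(value + 1) scale, which understates changes of low genes.

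The value of 1 fragment is the product of FPKM and length shared (within 3%) by the most genes among those under 2 FPKM that have a lone transcript of 1000 nt or longer. Estimated fragments use the median length of coding transcripts. The further setting with counting error adds a Poisson term for the tumour fragments to the squared SE. The silent receptor genes exclude the 2% of highest mean. Intervals are exact (Clopper-Pearson for ratios), cover counting error only and take fragments as independent.

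The members, lists and motifs were chosen with earlier results of these data known. Named genes are all members, from each related list the 2 strongest called genes in either direction or its most abundant gene where none was called, and the 3 genes nearest Gzmb. Serpinb9b and the cell type markers are named outside this rule. A list of death ligands, receptors and substrates is not reported here. Sequences come from RefSeq's tables. Protein sequences were not used here.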

Additional observations from a re-analysis of the deposited data

How the results depend on the processing

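Gzmb stayed higher and called under all 12 other settings that tested it, with log2 changes from 1.46 to 3.41. It did not reach a mean of at least 5 FPKM, a filter that left 6 members tested. The scaling decides most other directions. As deposited, 1 member was called higher (Gzmb) and 5 lower, over all genes 465 and 7620, and 4 members were at least 2-fold lower than each lymphoid library, as were 55.3% of tested genes. The log2 changes of Fasl (-0.20), Serpinb9 (-0.12), Srgn (-0.63), Ctsw (-1.10) and Gzmk (-0.47) were then negative. With library totals, 5 members were called higher and 0 lower, over all genes 4122 and 288, and 4 members were at least 2-fold higher (24.7% of tested genes), while Nkg7 turned to 0.39. The median log2 change of all tested genes was -0.96 as deposited and 0.62 with library totals, so these settings shift every gene together. With counting error added, 1 member was called higher and 0 lower (280 and 16 over all genes), and with the longest transcript in place of the median length 1 and 0 (347 and 22). With no filter, Gzma was called and Fasl was not, 1 member was called lower (Prf1) and 7364 genes were called higher. With a mean of at least 5 FPKM, 1 member was called higher (Serpinb9) and 0 lower (211 and 191 over all genes), from fewer tested genes. At 1.5-fold, 3 members were higher and 2 lower than each lymphoid library, beside 15.6% and 12.3% of tested genes. Without lymphoid replicate 1 or 2, which leaves no test, 3 and 1 members were at least 2-fold higher (10.4% and 10.8% of tested genes): Fasl and Serpinb9 joined Gzmb without lymphoid replicate 1. Gzmk was at -0.14 without lymphoid replicate 1 and 0.48 without lymphoid replicate 2. The cause of these changes was not tested. Background subtraction, T cell marker factors, longest transcripts and the left-out libraries of the fold counts were chosen after seeing the data. Fragment estimates of Fasl and Srgn depend most on length, from 20.7 to 98.5 and from 77.2 to 385.3 tumour fragments over their annotated transcripts. No paired analysis was possible because the tumour group has 1 library.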
